A study of Homo sapiens with 6 samples.

Results

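The transcription factors that drive or oppose the epithelial-mesenchymal transition (EMT), the chromatin protein gene HMGA2 and the vimentin gene VIM were examined in BCPAP cells, an established line of human papillary thyroid carcinoma. The genes SNAI1, SNAI2, ZEB1, ZEB2, TWIST1, TWIST2, VIM, HMGA2, GRHL2 and OVOL2 were chosen by name, and all 10 were measured, among 18132 genes in all. They were read by 29 probe sets, each paired with 1 gene symbol only. The shCSF2 cells carried a lentiviral short hairpin RNA that targets CSF2, which encodes the cytokine GM-CSF, and the shCtrl cells a non-targeting hairpin. Both groups went through puromycin selection for 7 days, which began 48 hours after transduction. Each group had 3 arrays, which the labels call biological replicates. Whether each replicate was a separate transduction, and how many hairpins were used, is not given in the sources used here.

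EMT is the loss of cell-cell junctions and apical-basal polarity in epithelial cells, with a gain of motility and matrix production. SNAI, ZEB and TWIST proteins bind E-box motifs in DNA and repress junction genes such as the E-cadherin gene CDH1, while GRHL2 and OVOL2 maintain the epithelial programme and repress ZEB1. In thyroid carcinoma these factors are studied mainly in invasion and loss of differentiation. Vimentin is the intermediate filament protein of mesenchymal cells and the most widely used marker of the transition.

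Values are log2 summaries of probe set signal, here called log2 values. Array medians lay between 5.77 and 5.79, and the median gene had a log2 value of 6.28 (quartiles 4.57 and 7.95). Lower quartiles were 4.15 to 4.16 on shCSF2 and 4.18 to 4.20 on shCtrl arrays, and upper quartiles 7.47 and 7.43 to 7.46. The highest values were 14.06 to 14.09 on shCSF2 and 13.91 to 13.96 on shCtrl arrays. The brightness of a probe set depends on its probes as well as on the transcript, so levels are compared between groups and not between genes. Pearson correlations across probe sets were 0.998 between arrays of one group and 0.994 between arrays of different groups; probe sets are not independent replicates. The level of CSF2 was not analysed here, and the group labels therefore have no check by the target gene. Of 7 thyroid follicular markers measured, the transcription factor genes NKX2-1 (9.37 in shCSF2 and 9.78 in shCtrl cells) and PAX8 (8.07 and 8.11) were bright, and NKX2-1 fell (log2 fold change -0.42 ± 0.04, adjusted p = 0.000315 by limma) while the other 6 did not pass. In contrast, the thyroglobulin gene TG (4.58 and 4.61) and the thyrotropin receptor gene TSHR (3.88 and 3.86) were dim in both groups. Among epithelial markers the keratin gene KRT18 was bright (11.82 and 11.74), and CDH1 lay between 3.46 and 3.73 on every array, below the lower quartile of all genes. Of 6 epithelial markers the keratin gene KRT8 alone passed, at 10.17 in shCSF2 and 10.42 in shCtrl cells (-0.26 ± 0.05). With its probe sets averaged, the claudin gene CLDN4 passed too, as higher (log2 fold change 0.23, adjusted p = 0.00231 by limma). Of 7 blood and immune markers the haemoglobin gene HBB alone passed, at 7.35 in shCSF2 and 7.61 in shCtrl cells. Of 5 endothelial markers TEK alone passed, at 3.19 and 3.44. The test was passed by 0 of 8 fibroblast and smooth muscle markers, of which DES (6.16 and 6.26) and MYH11 (5.65 and 5.80) were brightest. These marker counts are to be read against the 32.7% of all genes that passed the same test. The leucocyte gene PTPRC was among the dimmest genes, at 2.33 in shCSF2 and 2.35 in shCtrl cells. In contrast, HBB and CD68 (6.89 and 7.00) lay above the median gene. The difference between 3' and 5' control probe sets, a measure of RNA integrity, ranged from 0.57 to 0.66 on shCSF2 and from 0.54 to 0.63 on shCtrl arrays for ACTB (exact two-sided permutation p = 0.6), and from -0.02 to 0.00 and from -0.05 to -0.03 for GAPDH (p = 0.1, the smallest that 3 arrays against 3 can give).

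The comparison of shCSF2 with shCtrl asked whether targeting CSF2 alters the transcripts of the EMT regulators. Of the 10 genes, each represented by its brightest probe set, HMGA2 was lower in shCSF2 cells and the other 9 did not pass the test (limma, Benjamini-Hochberg adjusted p of 0.05 over all genes). That is 1 of 10 genes, where 32.7% of all genes passed, 16.7% higher and 16.0% lower. The median absolute log2 fold change was 0.04 over the 10 genes and 0.11 over all genes, and the largest was 0.18. The groups did not overlap for 4 of the 10 genes (HMGA2, SNAI2 and ZEB1 below, VIM above), against 46.7% of all genes. By probe set, 3 of 29 passed, all lower in shCSF2 cells, where 29.1% of all probe sets passed and 13.8% were lower. Groups did not overlap for 9 of the 29, against 43.8% of all probe sets. The plot of the 10 genes by array shows their values and the plot of all genes shows where they lie among the rest.

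**Figure D1:**
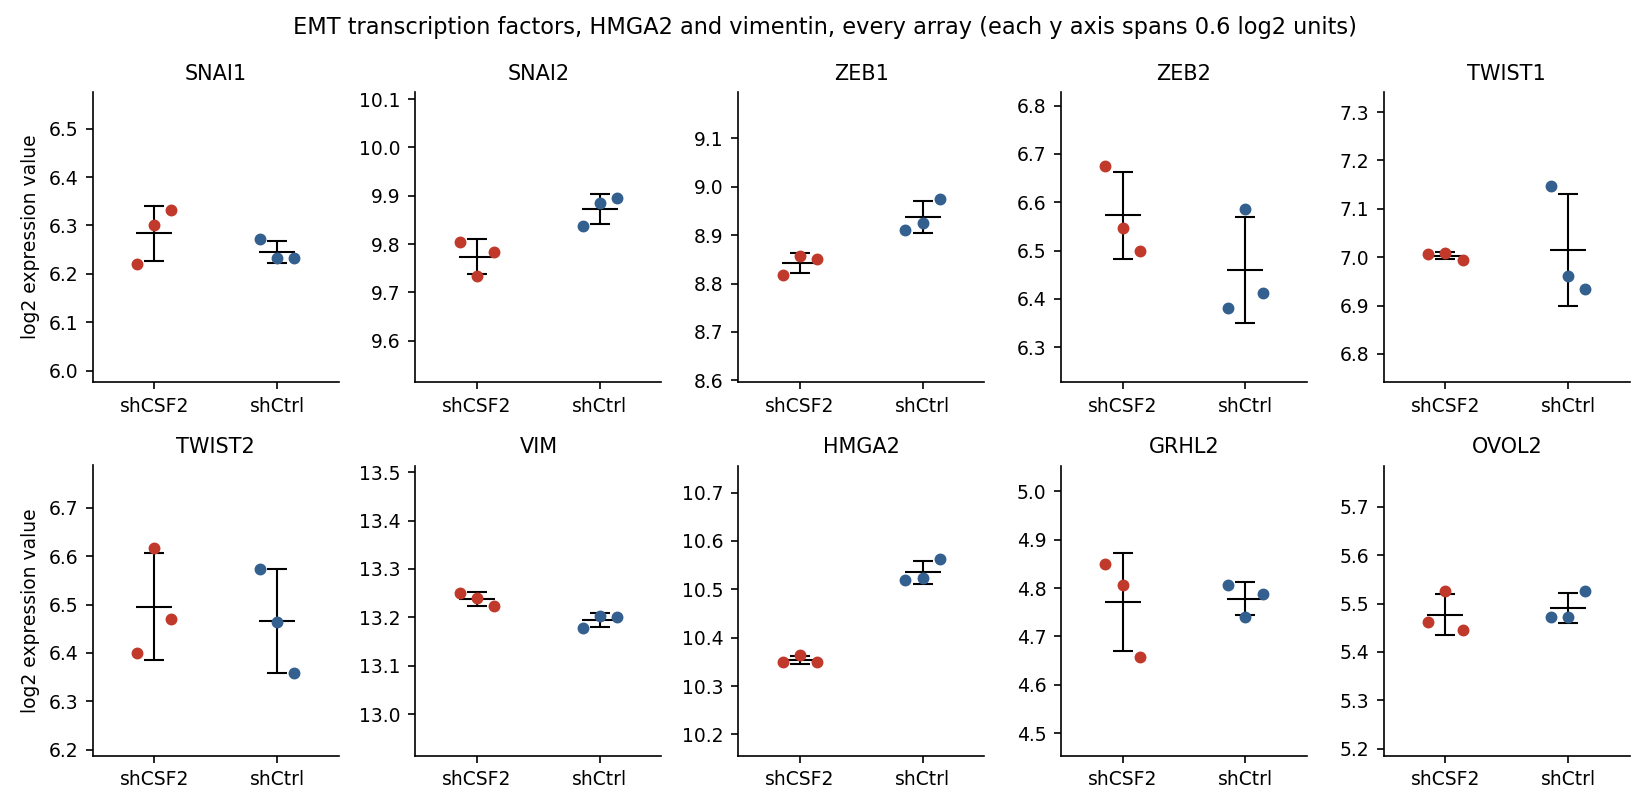
Log2 expression value (y axis, each panel spanning 0.6 log2 units) of the 10 genes on each shCSF2 array (red, left) and shCtrl array (blue, right), by the brightest probe set; bars give the mean ± SD (n = 3 arrays). HMGA2, SNAI2 and ZEB1 lie lower and VIM higher on every shCSF2 array than on any shCtrl array, and the groups overlap for the other 6 genes.

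**Figure D2:**
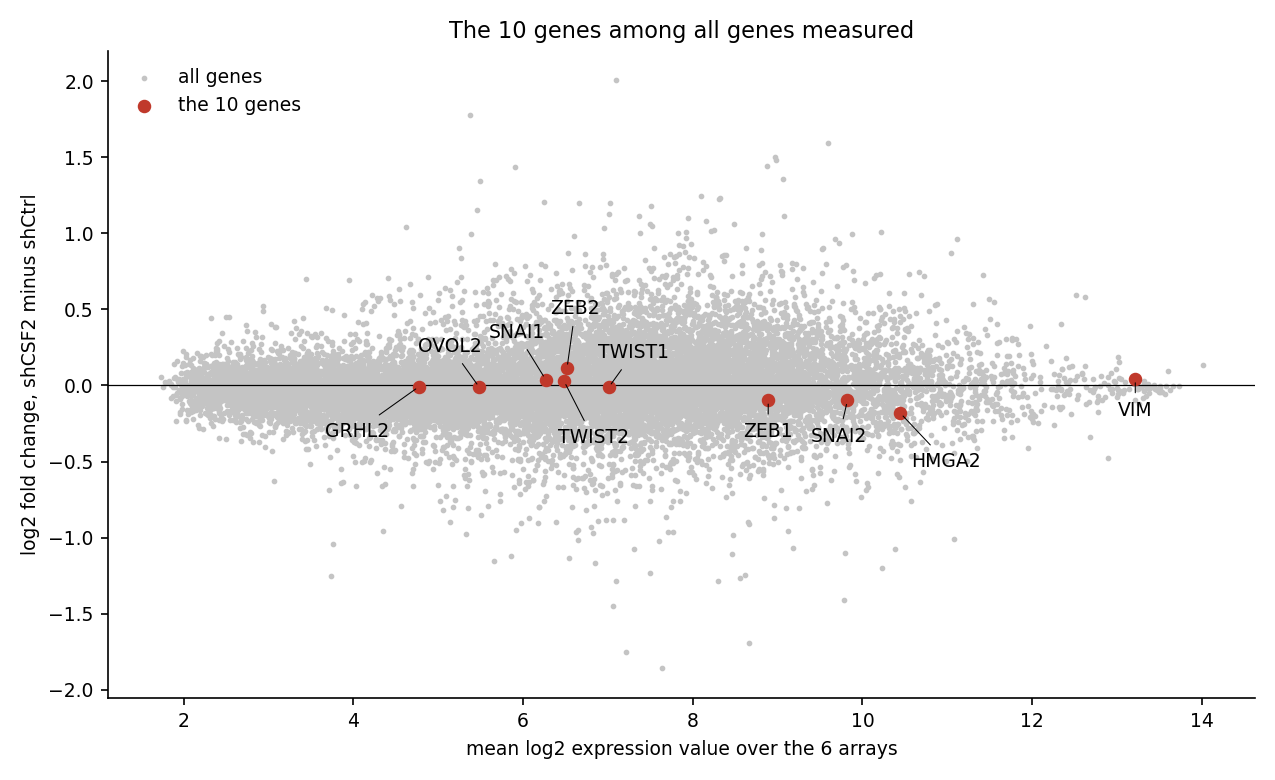
Log2 fold change (y axis, shCSF2 minus shCtrl) against the mean log2 value over 6 arrays (x axis) for 18132 genes (grey) and the 10 genes (red). The 10 genes lie between -0.18 and 0.11, near the middle of the spread of all genes.

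SNAI1, the Snail repressor of CDH1, had log2 values of 6.22, 6.30 and 6.33 on the shCSF2 arrays, against 6.27, 6.23 and 6.23 on the shCtrl arrays. The groups overlapped, with a log2 fold change of 0.04 ± 0.04 (SE, n = 3 arrays per group). Its 95% interval ran from -0.06 to 0.14, that is, no further than 1.10-fold from no change. SNAI2, the related factor Slug, was bright and slightly lower, at 9.80, 9.73 and 9.78 on shCSF2 arrays and 9.84, 9.88 and 9.90 on shCtrl arrays. Every shCSF2 array was below every shCtrl array, but the log2 fold change of -0.10 ± 0.04 did not pass (limma adjusted p = 0.0861, interval -0.19 to -0.01). SNAI1 and SNAI2 are each read by 1 probe set, so neither could be checked by a second one.

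ZEB1, a zinc finger and homeodomain repressor of epithelial genes, had values of 8.82, 8.86 and 8.85 on shCSF2 arrays, against 8.91, 8.93 and 8.97 on shCtrl arrays, by its brightest probe set. These groups did not overlap, but the log2 fold change of -0.10 ± 0.03 did not pass (limma adjusted p = 0.0814, interval -0.18 to -0.01). Of its 7 probe sets, 2 were lower in shCSF2 cells and 5 did not pass. The clearest of them, 11721546_s_at, gave 7.47, 7.46 and 7.50 on shCSF2 arrays and 7.69, 7.69 and 7.69 on shCtrl arrays. Its log2 fold change was -0.21 ± 0.04, or 1.16-fold lower (limma adjusted p = 0.00448 over all probe sets). The second, 11749136_x_at, gave 5.74, 5.62 and 5.64 on shCSF2 arrays and 5.82, 5.85 and 5.91 on shCtrl arrays, with a log2 fold change of -0.19 ± 0.05 (adjusted p = 0.0225 by limma). This second call was lost when any 1 of 4 arrays was left out (shCSF2 replicate 2 or 3, or shCtrl replicate 2 or 3), with a limma adjusted p of at most 0.0714. The other 5 ZEB1 probe sets had log2 fold changes between -0.10 and 0.04. The probe set with the highest of these, 11758473_s_at, averaged 7.97 ± 0.03 on shCSF2 arrays and 7.93 ± 0.04 on shCtrl arrays (SD, n = 3 each). The difference between 11721546_s_at and 11758473_s_at was 0.25 lower on average in shCSF2 cells (-0.25 ± 0.03, SE, n = 3). Its exact two-sided permutation p = 0.1 is the smallest that 3 against 3 can give. The pair was chosen after the values were seen, as the lowest passing and the highest log2 fold change of the gene. This p is therefore no evidence that the probe sets differ. Probe sets whose name ends in _x_at or _s_at may bind transcripts of other genes, and those ending in _s_at or _a_at bind several transcripts.

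The RefSeq promoter table of GRCh38.p14 matched 4 of the 10 genes (ZEB1, ZEB2, TWIST2 and VIM), and SNAI1, SNAI2, TWIST1, HMGA2, GRHL2 and OVOL2 were not matched. Each window runs from 250 bases before to 50 after a start site. The E-box CACCTG, whose other strand reads CAGGTG and which SNAI and ZEB proteins bind, was present in 20.6% of 35116 such windows, searched on both strands. ZEB1 has 7 windows, of which 2 held it, and the windows of ZEB2, TWIST2 and VIM did not. The ZEB1 window with the most matches is printed because ZEB1 has the most probe sets that fell among the 10 genes. It lies at chr10:31318966-31319265 on the plus strand, and capitals mark its 3 matches, which are a description of the letters and not evidence of binding.
ZEB1 promoter window: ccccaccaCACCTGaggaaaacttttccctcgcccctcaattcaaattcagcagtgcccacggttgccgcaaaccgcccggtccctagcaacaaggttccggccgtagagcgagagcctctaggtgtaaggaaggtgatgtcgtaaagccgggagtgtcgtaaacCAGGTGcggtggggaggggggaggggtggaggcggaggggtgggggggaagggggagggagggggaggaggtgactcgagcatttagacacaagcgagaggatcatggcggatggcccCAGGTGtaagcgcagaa

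ZEB2, the second ZEB factor, had values of 6.67, 6.55 and 6.50 on shCSF2 arrays, against 6.38, 6.59 and 6.41 on shCtrl arrays. The groups overlapped, and the log2 fold change was 0.11 ± 0.07 (interval -0.05 to 0.28, adjusted p = 0.266 by limma). Its other probe set had a log2 fold change of 0.13 ± 0.06 and did not pass either. ZEB1 and ZEB2 are known targets of the miR-200 family, small RNAs that keep both factors low in epithelial cells. The levels of these RNAs were not analysed here. Their RefSeq mature sequences (GRCh38.p14) are printed because the family splits by seed, the bases at positions 2 to 8 in capitals, into a group of 2 and a group of 3.
hsa-miR-141-3p: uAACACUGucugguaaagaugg
hsa-miR-200a-3p: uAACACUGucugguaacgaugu
hsa-miR-200b-3p: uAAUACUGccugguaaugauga
hsa-miR-200c-3p: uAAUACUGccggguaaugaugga
hsa-miR-429: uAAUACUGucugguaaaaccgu

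TWIST1, a basic helix-loop-helix factor, had values of 7.01, 7.01 and 7.00 on shCSF2 arrays, against 7.15, 6.96 and 6.93 on shCtrl arrays. The shCtrl arrays enclosed the shCSF2 arrays, and the log2 fold change was -0.01 ± 0.06 (interval -0.15 to 0.13). TWIST2, its close relative, gave 6.40, 6.62 and 6.47 on shCSF2 arrays and 6.57, 6.46 and 6.36 on shCtrl arrays. Its log2 fold change of 0.03 ± 0.07 did not pass (interval -0.15 to 0.21), and a dimmer probe set with a mean log2 value of 3.95 had one of -0.18 ± 0.08, which did not pass.

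HMGA2, an architectural protein that binds AT-rich DNA and induces SNAI1 and TWIST1 in mouse mammary epithelial cells, was the only one of the 10 genes to pass. Its log2 values were 10.35, 10.36 and 10.35 on shCSF2 arrays, against 10.52, 10.52 and 10.56 on shCtrl arrays. All shCSF2 arrays were lower, with a log2 fold change of -0.18 ± 0.03 (interval -0.26 to -0.10), or 1.13-fold lower (adjusted p = 0.00538 by limma). The call was kept when each array in turn was left out (adjusted p 0.0167 to 0.0221), and it was lost when all HMGA2 probe sets were averaged (-0.05, adjusted p = 0.388) or the most variable one was used (-0.15, adjusted p = 0.392).

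HMGA2 has 6 probe sets, and the one that passed, 11740656_a_at, was designed on a current RefSeq transcript. A second one on a current RefSeq transcript, 11732032_a_at, gave 4.52, 4.68 and 4.65 on shCSF2 arrays and 4.55, 4.62 and 4.63 on shCtrl arrays, with a log2 fold change of 0.01 ± 0.05. The probe set 11761705_a_at, designed on another HMGA2 mRNA, had a log2 fold change of the opposite sign, which did not pass. It gave 6.34, 6.35 and 6.38 on shCSF2 arrays, against 6.26, 6.25 and 6.18 on shCtrl arrays, with a log2 fold change of 0.13 ± 0.04 (adjusted p = 0.0523 by limma). Its shCSF2 arrays were all higher, and it passed when probe sets with a mean log2 value under 5 were left out (adjusted p = 0.0181). The difference between 11740656_a_at and 11761705_a_at, chosen after their values were seen, was 4.01, 4.01 and 3.97 on shCSF2 arrays, against 4.26, 4.28 and 4.38 on shCtrl arrays. It was lower by 0.31 on average in shCSF2 cells (-0.31 ± 0.04, SE, n = 3), with an exact two-sided permutation p = 0.1, the smallest possible here. The pair holds the lowest passing and the highest log2 fold change of the gene. Both probe sets already separated the groups, in opposite directions, so this p was fixed by the choice and is no evidence of a difference. The other 3 HMGA2 probe sets had mean log2 values between 2.78 and 5.11, overlapping groups and log2 fold changes between -0.15 and -0.02. Values of every probe set with their intervals are in the plot of the 29 probe sets.

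**Figure D3:**
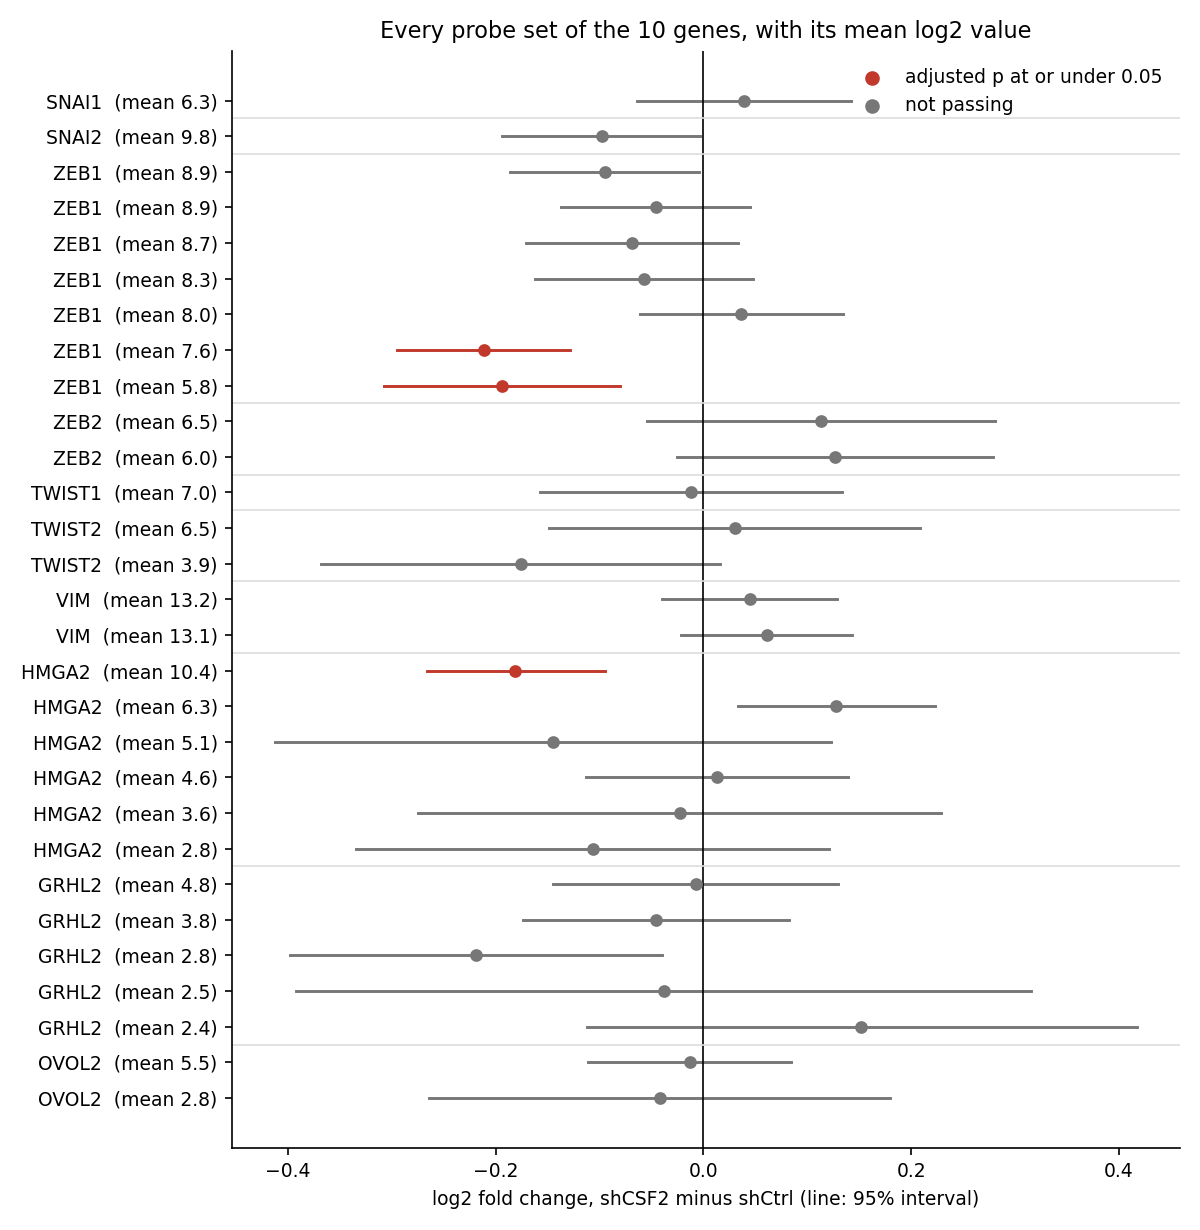
Log2 fold change (x axis, shCSF2 minus shCtrl) of the 29 probe sets of the 10 genes, 1 per line with its mean log2 value; lines are 95% intervals, and red marks an adjusted p of at most 0.05. HMGA2 has 1 and ZEB1 has 2 passing probe sets, all below 0, and 26 did not pass.

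HMGA2 is a textbook target of the let-7 miRNAs, whose maturation LIN28 proteins block. The let-7 RNAs were not analysed here. Their RefSeq mature sequences (GRCh38.p14) are printed because 9 of them share 1 seed, in capitals, through which they recognise HMGA2.
hsa-let-7a-5p: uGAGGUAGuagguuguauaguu
hsa-let-7b-5p: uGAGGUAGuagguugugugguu
hsa-let-7c-5p: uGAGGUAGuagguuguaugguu
hsa-let-7d-5p: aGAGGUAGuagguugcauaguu
hsa-let-7e-5p: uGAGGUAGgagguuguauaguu
hsa-let-7f-5p: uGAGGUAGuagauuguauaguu
hsa-let-7g-5p: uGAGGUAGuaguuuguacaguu
hsa-let-7i-5p: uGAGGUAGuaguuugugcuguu
hsa-miR-98-5p: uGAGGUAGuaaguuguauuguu

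Among 17 genes of the LIN28 and let-7 axis, 6 were lower in shCSF2 cells, 3 were higher and 8 did not pass, against 16.0% lower and 16.7% higher among all genes. Their median log2 fold change was -0.07, and that of all genes was -0.03. Of the 12 at or above the median level, 5 were lower and 2 higher, where 64% of genes at such levels passed. LIN28B, which blocks let-7 maturation, gave 6.24, 6.27 and 6.33 on shCSF2 arrays, against 6.89, 6.89 and 7.10 on shCtrl arrays. It fell 1.60-fold (log2 fold change -0.68 ± 0.06, adjusted p = 0.000357 by limma), with both of its probe sets lower, whereas LIN28A was among the dimmest genes, at a mean of 2.33 in shCSF2 and 2.30 in shCtrl cells. DICER1, the nuclease that cuts miRNA precursors, gave 7.93, 8.01 and 7.83 on shCSF2 arrays and 7.46, 7.49 and 7.47 on shCtrl arrays. It rose 1.37-fold (log2 fold change 0.46 ± 0.05, adjusted p = 0.000658 by limma), with 4 of 4 probe sets higher. The uridylyltransferase gene TUT7 rose (0.25 ± 0.04) by 1 of 2 probe sets and ARID3B, a DNA-binding protein gene, fell (-0.22 ± 0.05) by 2 of 3. When each gene was given by the mean of its probe sets, the axis had 1 gene higher and 5 lower, where 33.5% of all genes passed. TUT7 then no longer passed (adjusted p = 0.0957 by limma).

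**Figure D4:**
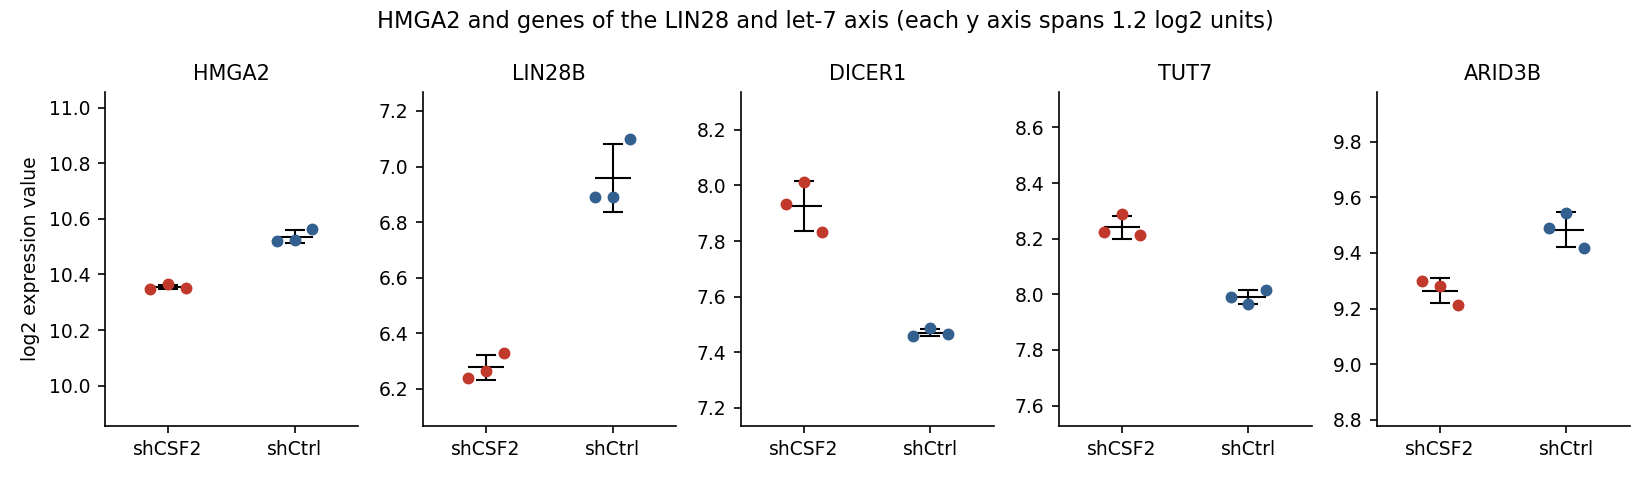
Log2 expression value (y axis, each panel spanning 1.2 log2 units) of HMGA2, LIN28B, DICER1, TUT7 and ARID3B on each shCSF2 array (red, left) and shCtrl array (blue, right), with mean ± SD (n = 3 arrays). HMGA2, LIN28B and ARID3B lie lower and DICER1 and TUT7 higher on all shCSF2 arrays.

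The genes whose values over the 6 arrays were most like those of HMGA2, among 9802 others with a mean log2 value of at least 6, were the transcription factor gene CREB3L2 (Pearson r = 0.9994), the RNA-binding protein gene SARNP (r = 0.9992) and the cyclin gene CCNI (r = 0.9991). These correlations share the 2 groups of arrays and are given as a description. All 3 genes were lower in shCSF2 cells, which follows from their choice by likeness to HMGA2. Their log2 fold changes were -0.36, -0.24 and -0.18 in the same order.

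Neither epithelial-side factor passed. GRHL2, a grainyhead factor that activates junction genes, gave 4.85, 4.81 and 4.66 on shCSF2 arrays, against 4.81, 4.74 and 4.79 on shCtrl arrays. The groups overlapped, with a log2 fold change of -0.01 ± 0.06 (interval -0.14 to 0.13). Its 4 dimmer probe sets had mean log2 values between 2.39 and 3.75, and none passed. OVOL2, a zinc finger repressor of ZEB1, gave 5.46, 5.53 and 5.45 on shCSF2 arrays and 5.47, 5.47 and 5.53 on shCtrl arrays. Its log2 fold change was -0.01 ± 0.04, and the interval of -0.10 to 0.08 allows a change of at most 1.08-fold. The difference of both genes from 0 was under the spread between arrays.

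VIM was near the top of the arrays' range in both groups, at 13.25, 13.24 and 13.22 on shCSF2 arrays and 13.18, 13.20 and 13.20 on shCtrl arrays, where the brightest gene had a mean of 14.01. Its second probe set gave 13.12, 13.12 and 13.14 on shCSF2 arrays, against 13.07, 13.07 and 13.07 on shCtrl arrays. All shCSF2 arrays were higher by both probe sets, but by little, with log2 fold changes of 0.04 ± 0.03 and 0.06 ± 0.04. Neither passed (adjusted p = 0.341 over genes and 0.249 over probe sets, limma), and the interval of the first (-0.03 to 0.12) reaches a 1.09-fold rise. After quantile normalisation again and after cyclic loess the first had a log2 fold change of 0.07 and did not pass. At such brightness an array can compress differences, and the part of this in the result was not tested.

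The calls of SNAI2, ZEB1 and VIM depended on the processing. With a variance trend and robust estimation, VIM (adjusted p = 0.028), SNAI2 (0.00817) and ZEB1 (0.0165) passed beside HMGA2 by limma, which made 4 of 10 genes, where 37.8% of all genes passed. With genes of a mean log2 value under 5 left out, SNAI2 (0.0414) and ZEB1 (0.0384) passed and VIM did not (0.239), which made 3 of 9 genes, where 51.4% of all genes kept passed. At levels at or above the median SNAI2 (0.0226) and ZEB1 (0.021) passed as well, among 64% of genes. ZEB1 alone of the 3 also passed after quantile normalisation (0.039), after cyclic loess (0.0418) and by its most variable probe set (-0.19, 0.0306), and so in 6 of 10 alternatives that kept all arrays. None of the 3 passed when any 1 array was left out.

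Lists of genes that these factors act on or work with were counted in the same fit. Of 23 measured mesenchymal genes that EMT raises, 15 were lower in shCSF2 cells, 3 were higher and 5 did not pass, against 16.0% lower and 16.7% higher among all genes. Their median log2 fold change was -0.21, and that of all genes was -0.03. The actin-binding gene CALD1 gave 9.61, 9.64 and 9.58 on shCSF2 arrays, against 10.33, 10.36 and 10.34 on shCtrl arrays. It fell 1.66-fold (log2 fold change -0.74 ± 0.03) with all 10 probe sets lower, and the fibronectin gene FN1 fell 1.39-fold (-0.48 ± 0.03) with all 8. The cadherin gene CDH11 (-0.55 ± 0.04, 4 of 6 probe sets, or -0.35 as their mean) and the smooth muscle actin gene ACTA2 (-0.46 ± 0.06, 1 of 3) fell as well, though the mean of the ACTA2 probe sets fell by 0.15 only. The 3 genes that rose are named with their values known: the N-cadherin gene CDH2 (0.13 ± 0.03), the calcium-binding protein gene S100A4 (0.28 ± 0.03) and the hyaluronan receptor gene CD44 (0.43 ± 0.04, or 0.69 as the mean of its probe sets). CDH2 no longer passed with its probe sets averaged (adjusted p = 0.0618 by limma). The count of lower genes stayed between 13 and 16 over all alternatives tried. At or above the median level, 13 of 18 genes of the list were lower and 4 higher. Of all 9066 genes at such levels, 2701 were lower and 3097 higher. The difference between this list and the 10 genes was not tested. The 8 fibroblast and smooth muscle markers, 0 of which passed, were dim (mean log2 values between 3.31 and 6.16 in shCSF2 and between 3.34 and 6.26 in shCtrl cells), and their summed log2 values were 36.4 to 37.2 on shCSF2 arrays, against 37.4 to 38.2 on shCtrl arrays. These sums did not overlap. Nor did those of the 7 thyroid markers (44.4 to 44.6 on shCSF2 arrays, against 44.7 to 44.9 on shCtrl arrays) or of the 5 endothelial markers (27.1 to 27.7, against 27.8 to 28.3), which were lower in shCSF2 cells too. The sums overlapped for the epithelial markers (43.97 to 44.20, against 43.99 to 44.09) and the blood and immune markers (31.19 to 31.89, against 31.87 to 32.02). Of all genes taken singly, 46.7% did not overlap between groups. Single genes with large falls lie in the lists whose sums did not overlap. They include NKX2-1 (-0.42), the dim gene LUM (-0.50, not passing) and the dim gene TEK (-0.25, or 0.006 with its probe sets averaged). The 6 other thyroid markers did not pass. FOXE1 (0.124), HHEX (0.111) and TSHR (0.027) were higher, and PAX8 (-0.038), TG (-0.032) and SLC5A5 (-0.105) were lower. The part of the shifts of these marker sums in the result was not tested.

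**Figure D5:**
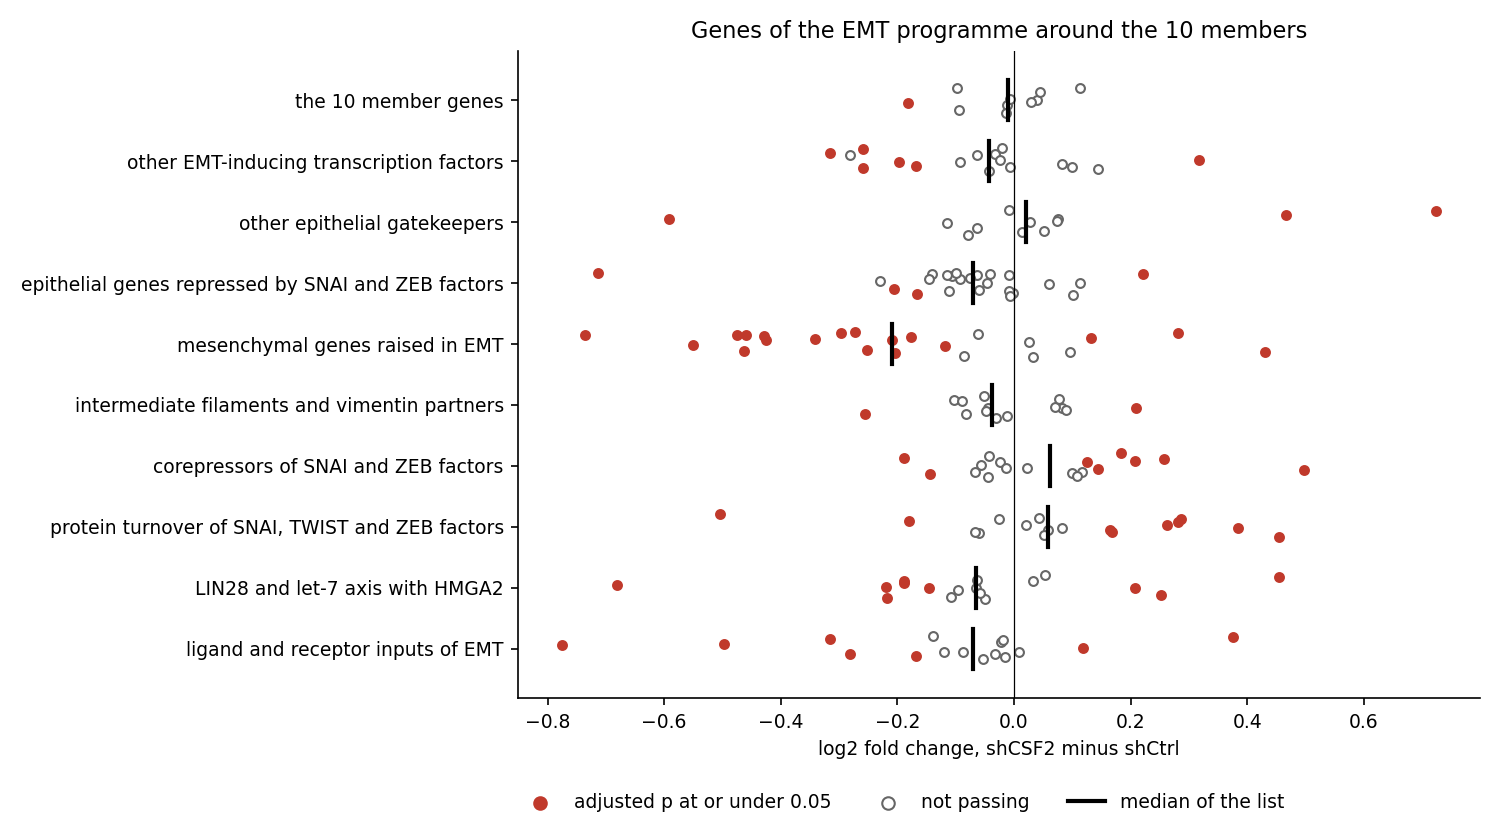
Log2 fold change (x axis, shCSF2 minus shCtrl) of the 10 genes and of the members of 9 other lists, 1 dot per gene; filled red dots passed an adjusted p of 0.05 and black bars are medians. The median is -0.01 for the 10 genes and -0.21 for the mesenchymal genes.

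Of 24 epithelial genes that SNAI and ZEB proteins repress, 1 was higher, 3 were lower and 20 did not pass, where 32.7% of all genes passed. Their median log2 fold change was -0.07. CDH1 gave 3.66, 3.49 and 3.73 on shCSF2 arrays, against 3.55, 3.46 and 3.55 on shCtrl arrays, which overlap (log2 fold change 0.10 ± 0.07, adjusted p = 0.290 by limma), and its second probe set was dimmer still. The tight junction gene CLDN1 rose (0.22 ± 0.04, 4 of 4 probe sets). CLDN4, named with its values known, did not pass by its brightest probe set (0.11) but rose with all averaged (0.23, adjusted p = 0.00231 by limma). With every gene given by the mean of its probe sets, 2 of the 24 were higher and 3 lower, where 33.5% of all genes passed. The lipid enzyme gene CDS1 fell (-0.71 ± 0.07, 3 of 3), as did the protease inhibitor gene SPINT1 (-0.21 ± 0.04, 1 of 5, or -0.12 as their mean) and the periplakin gene PPL (-0.17 ± 0.04, 1 of 4), which no longer passed with all probe sets averaged (adjusted p = 0.310 by limma).

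Of 12 other epithelial gatekeepers measured, 2 were higher and 1 was lower, where 32.7% of all genes passed. The reprogramming factor gene KLF4 gave 8.03, 8.10 and 7.99 on shCSF2 arrays, against 7.25, 7.42 and 7.28 on shCtrl arrays, a 1.65-fold rise (log2 fold change 0.72 ± 0.06, adjusted p = 0.000165 by limma). The ETS factor gene EHF was dim, at 4.71 in shCSF2 and 4.24 in shCtrl cells. It rose (0.47 ± 0.11, 3 of 8 probe sets, or 0.15 with all averaged) and its relative ELF3 fell (-0.59 ± 0.08, 2 of 3, or -0.38). Of 17 other factors that induce EMT, 1 rose and 5 fell, a share to be read against 32.7% of all genes, with a median of -0.04. The homeobox gene PRRX1 rose (0.32 ± 0.08, or 0.16 with both probe sets averaged), and TCF4, an E-box binding factor (-0.32 ± 0.03), SOX4 (-0.26 ± 0.04) and RUNX2 (-0.26 ± 0.04) fell. TCF4 fell by 2 of 11 probe sets and no longer passed with all averaged (-0.10, adjusted p = 0.0629), nor did RUNX2 (-0.16, adjusted p = 0.0556, limma), whereas 6 of 7 probe sets of SOX4 were lower.

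Of 18 corepressors of SNAI and ZEB proteins, 6 were higher and 2 lower, where 16.7% of all genes were higher and 16.0% lower. Their median log2 fold change was 0.06, and their median level of 8.89 was above that of all genes (6.28). Bright genes passed more often. Of 9066 genes at or above the median level, 3097 were higher and 2701 lower. Of the 17 corepressors at such levels, 8 were higher and 2 lower. RCOR1, the CoREST scaffold, gave 8.64, 8.62 and 8.63 on shCSF2 arrays, against 8.13, 8.14 and 8.11 on shCtrl arrays, a 1.41-fold rise (log2 fold change 0.50 ± 0.03, or 0.32 with both probe sets averaged). AJUBA (0.26 ± 0.04) and the arginine methyltransferase gene PRMT5 (0.21 ± 0.03) rose, while KDM1A, the demethylase that works with RCOR1, fell (-0.19 ± 0.04). The count of higher genes varied between 4 and 9 over the alternatives. Of 17 genes that set the turnover of SNAI, TWIST and ZEB proteins, 7 were higher and 2 lower, against the same 16.7% and 16.0% of all genes. Of the 14 of them at or above the median level, 6 were higher and 2 lower. The ubiquitin ligase genes SIAH2 (0.46 ± 0.04) and FBXO45 (0.39 ± 0.03) and the phosphatase gene CTDSP2 (0.29 ± 0.03, or 0.11 with all probe sets averaged) rose, and the kinase gene ATM fell (-0.51 ± 0.05, 5 of 5 probe sets). Protein levels were not measured.

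Among 16 ligand and receptor inputs of EMT, 5 were lower and 2 higher, that is, 7 of 16 passed, where 32.7% of all genes did. Their median log2 fold change was -0.07. Of the 13 at or above the median level, 5 were lower and 2 higher, where 64% of genes at such levels passed. The Notch ligand gene JAG1 gave 9.18, 9.27 and 9.14 on shCSF2 arrays, against 9.98, 10.03 and 9.90 on shCtrl arrays. It fell 1.71-fold (log2 fold change -0.78 ± 0.05, 5 of 6 probe sets), and the Notch target gene HES1 fell 1.41-fold (-0.50 ± 0.05, 2 of 5, or -0.26 with all averaged). The ligand gene TGFB2 fell (-0.32 ± 0.09, 1 of 2 probe sets, or -0.22 with both averaged). The receptor gene EGFR rose (0.38 ± 0.04, or 0.17 with all probe sets averaged). Of 14 intermediate filament genes and vimentin partners, the keratin gene KRT8 fell (-0.26 ± 0.05, 8 of 8 probe sets), the linker protein gene PLEC rose (0.21 ± 0.05) and 12 did not pass, where 32.7% of all genes passed.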

How the data were processed

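Total RNA (200 ng per array, per the labels) was labelled from the 3' end of transcripts and measured on Affymetrix PrimeView arrays. The deposited values are log2 summaries, 1 per probe set and array, and per the submitters' processing notes the tools were RMA, oligo and limma (versions not given). RMA subtracts background, brings arrays to one distribution and combines the probes of a set, which compresses differences at low signal. The quartiles of the deposited summaries still differed slightly between the groups. Of 49395 probe sets, 102 were controls, 44988 had 1 gene symbol in the platform annotation, 1832 had several and 2473 were not listed. Gene identifiers were matched to RefSeq (27 unmatched, 0 symbols changed). The brightest probe set on average represented each gene.

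Genes, and separately the 49293 probe sets that are no controls, were tested with lmFit and eBayes (limma 3.58.1, R 4.3.3) without a block, and p-values were adjusted by Benjamini-Hochberg over all genes or probe sets. Fold changes are shCSF2 minus shCtrl. The fit was checked on simulated data. Permutation tests used scipy 1.17.1 and figures matplotlib 3.10.9. Precision is limited by the number of arrays. The members and lists were chosen with earlier results of these data known. From each list the 4 passing genes with the largest change were named, or the 2 brightest where none passed, and genes named otherwise are marked. Marker genes named beyond this rule, CDH1 and LIN28A are given as reference points. Same-numbered arrays did not deviate together (r = 0.03, 0.05 and 0.03), so numbers were not taken as pairs. Alternatives were filters on dim genes, 3 renormalisations, array weights, a variance trend with robust estimation, the replicate number as a block, other choices of probe set, and leaving out each array.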

Additional observations from a re-analysis of the deposited data

How the results depend on the processing

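Counts of passing genes (3037 higher and 2893 lower as reported) stayed within 1.5 times of these in all alternatives, between 2552 and 3495 higher and between 2267 and 3359 lower; with the replicate number as a block, 2798 and 2671 passed. Over probe sets (7544 and 6817) they ranged from 6137 to 8808 and from 5086 to 8016. With the block, HMGA2 kept its call (adjusted p = 0.0215 by limma), and 2 dim probe sets, of GRHL2 (-0.22, adjusted p = 0.0457) and TWIST2 (-0.18, adjusted p = 0.0362), passed, while 1 of the 2 ZEB1 probe sets was lost (adjusted p = 0.0571). Changes of sign occurred only where neither fit passed. With quantile normalisation again and cyclic loess, GRHL2 was 0.019 and 0.026, OVOL2 0.000 and 0.007, and the HMGA2 probe set 11762062_x_at 0.008 in both. TWIST2 was -0.073 with its probe sets averaged and -0.176 by the most variable one. Leaving out 1 array gave ranges of -0.047 to 0.050 for GRHL2, -0.037 to 0.004 for OVOL2, -0.052 to 0.055 for TWIST1 and -0.030 to 0.084 for TWIST2, each by its brightest probe set. It gave -0.141 to 0.034 for the dimmer OVOL2 probe set, -0.169 to 0.098 for GRHL2 11731239_x_at, and -0.017 to 0.059 and -0.096 to 0.087 for HMGA2 11732032_a_at and 11762062_x_at. ZEB2 ranged from 0.063 to 0.176 and SNAI1 from 0.015 to 0.070 without a change of sign or a call. The dim probe set GRHL2 11752934_a_at passed without shCSF2 replicate 2 (adjusted p = 0.0153) and HMGA2 11762147_at without shCtrl replicate 2 (adjusted p = 0.0392, limma). The cause was not tested.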
